A study of Caenorhabditis elegans with 2 samples.

Results

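The regions described are promoter peaks of eGFP-C16A3.4 that lie close to the start of a single gene. Each has its summit off the X chromosome, more than 200 bp from any tRNA gene, in the promoter window (1000 bp upstream to 200 bp downstream of the annotated 5′ end) of exactly 1 protein-coding gene, and within 250 bp upstream to 200 bp downstream of that end. The rule was met by 516 of the 3220 peaks of the authors' thresholded list, at 515 genes, since F47D12.9 has 2 of the peaks. The rule itself used neither signal nor replicate behaviour, but both had entered the thresholded list, which was derived from the pooled and replicate lists. Of the remaining peaks, 456 lay further upstream of a single autosomal gene, 714 lay in the windows of more than 1 autosomal gene, 835 autosomal peaks lay in no promoter window, 115 lay near an autosomal tRNA gene and 584 lay on X.

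The peaks come from chromatin immunoprecipitation and sequencing of whole first-stage (L1) larvae of the worm Caenorhabditis elegans, of mixed sex and unknown age. All samples form 1 group of 2 biological replicates of strain OP345, which has the genotype unc-119(ed3) III; wgIs345, and the series holds no second condition. The transgene wgIs345 adds a copy of C16A3.4, named znf-622 in the reference annotation, fused to green fluorescent protein, so the peaks are those of a tagged extra copy in a mixture of all larval tissues. With 2 replicates no test can pass a threshold (the smallest two-sided exact p is 0.5), so what follows is description.

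In worms, transcription by RNA polymerase II usually starts some way upstream of the mature mRNA's first base. Most transcripts lose their original 5′ end when a spliced leader is joined to them, and the annotated 5′ end then marks the splice acceptor or the first mapped base and not the site of initiation. Promoters proper therefore tend to sit in a short stretch of open, nucleosome-poor DNA just upstream of the annotated end. ZNF-622 is a zinc finger protein, and its relatives in yeast and human are known as cytoplasmic factors that help mature large ribosomal subunits.

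The following stretches are examples of the DNA under strong peaks. Each reaches 50 bases to either side of a summit and is written on the strand of the gene from 5′ to 3′ (reference genome ce11, the same assembly as WBcel235). Capitals mark matches on either strand to 8 short words that are described further on, namely GAGAGA (a repeat), GCGCGC (a run of alternating bases), CTGCGTCT (a worm promoter word), TATAAA (the TATA box), and the words picked from these peaks, which are ACGCGC (first by count), GCAAAC (second), GAGCGC (next) and GACGCA (last). The first set of 4 shows the peaks that rank 1, 2, 3 and 5 by signal.
cdc-48.1 (chrII:10563533-10563633, minus strand): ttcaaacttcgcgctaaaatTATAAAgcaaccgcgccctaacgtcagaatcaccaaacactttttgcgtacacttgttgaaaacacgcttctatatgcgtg
eelo-2 (chrIV:17249858-17249958, plus strand): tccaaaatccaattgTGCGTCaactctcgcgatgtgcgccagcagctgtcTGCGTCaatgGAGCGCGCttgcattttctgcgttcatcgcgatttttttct
his-37 (chrV:9546972-9547072, plus strand): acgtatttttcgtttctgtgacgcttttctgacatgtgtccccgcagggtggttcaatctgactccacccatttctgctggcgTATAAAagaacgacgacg
dld-1 (chrIV:14464217-14464317, plus strand): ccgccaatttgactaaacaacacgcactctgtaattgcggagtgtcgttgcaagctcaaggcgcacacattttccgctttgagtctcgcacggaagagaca
The stretch of eelo-2 holds GCGCGC with an overlapping GAGCGC and 2 copies of GACGCA, those of cdc-48.1 and his-37 each hold TATAAA and no other of the 8 words, and that of dld-1 holds none. TATAAA is not typical of strong peaks, since it was held by 3 of the 172 strongest (1.74%) and 16 of the 172 weakest (9.30%). The next 3 are the strongest with CTGCGTCT, and the last is the strongest with GAGAGA. CTGCGTCT is the named word with the largest fold excess at these summits over the flanking windows (over promoters GCGCGC had a larger one).
Y39B6A.43 (chrV:18967791-18967891, minus strand): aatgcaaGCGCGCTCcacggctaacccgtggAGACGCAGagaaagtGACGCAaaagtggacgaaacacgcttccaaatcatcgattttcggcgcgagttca
C34C12.8 (chrIII:3460213-3460313, plus strand): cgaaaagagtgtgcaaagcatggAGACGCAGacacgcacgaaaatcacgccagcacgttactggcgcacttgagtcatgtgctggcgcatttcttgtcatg
ntl-11 (chrIV:15471571-15471671, minus strand): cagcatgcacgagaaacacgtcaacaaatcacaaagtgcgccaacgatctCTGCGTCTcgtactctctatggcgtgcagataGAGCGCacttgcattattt
gex-3 (chrIV:12404276-12404376, plus strand): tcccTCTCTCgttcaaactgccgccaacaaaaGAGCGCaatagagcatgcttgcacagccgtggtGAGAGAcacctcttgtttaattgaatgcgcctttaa
At Y39B6A.43 and C34C12.8 the CTGCGTCT word reads on the strand opposite to the gene, and at ntl-11, which encodes a subunit of the CCR4-NOT deadenylase complex, it reads on the gene's own strand. The gex-3 promoter, of a gene for a subunit of the WAVE actin-regulating complex, holds GAGAGA once in each orientation.

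The strongest of the 516 peaks stood at cdc-48.1, which encodes an AAA ATPase that extracts ubiquitinated proteins from complexes. Its peak (chromosome II, 10563448 to 10563716) reached 902 by thresholded signal, 407 in replicate 1 and 508 in replicate 2, and it ranked 1 and 2 in those replicates. The signal is the authors' own value per peak, and its scale is not stated. The next peak, at eelo-2 (chromosome IV, 17249794 to 17250033), reached 485 by thresholded signal, beside 206 in replicate 1 and 277 in replicate 2. A gap separates cdc-48.1 from the rest, since over all 516 peaks the signal ran from 48.5 to 902 with a median of 89.4 and quartiles of 63.9 and 138.7.

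Next came his-37, a histone H4 gene (chromosome V, 9546897 to 9547126), whose thresholded signal was 462, beside 174 in replicate 1 and 289 in replicate 2. It was the only one of 68 autosomal genes named his with such a peak (1.47%, interval 0.260 to 7.87%). Over all autosomal protein-coding genes the share was 2.99%. Another 8 his genes had a peak in a window shared with another gene. Outside that list, named after their values were seen, the histone H1-like genes hil-7 (116) and hil-2 (49.9) had a near-start peak. So did hcp-3 (89.6), for the centromeric histone H3 variant. The peak of cox-5B, for a subunit of cytochrome c oxidase, reached 433 (184 and 246 in replicates 1 and 2), and that of dld-1, for the dihydrolipoamide dehydrogenase shared by several mitochondrial enzyme complexes, reached 432 (190 and 240). Further down, the peak of pdhk-2, for the kinase that inhibits pyruvate dehydrogenase, reached 284 (128 and 157). At his-37, cox-5B, dld-1 and pdhk-2 the signal was higher in replicate 2.

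The strongest 15 also held the following genes. The peak of bag-1, for a co-chaperone of Hsp70, had a signal of 389, and that of wwp-1, for a HECT-type ubiquitin ligase, had 369. The peak of ints-4, for a subunit of the Integrator complex that processes small nuclear RNAs, had 374. Those of eif-3.C, for a subunit of translation initiation factor eIF3, and of tos-1, a gene whose alternative splicing is used as a reporter, had 328 and 287. The F-box gene fbxl-2 had 303, and Y39B6A.43, Y39E4B.6 and rcat-1 had 344, 298 and 290.2. At the other end, the 5 lowest peaks, at cyp-13A5, ZK1236.5, ctg-1, ekl-6 and T28C6.8, lay between 48.5 and 48.8, close to the lowest value of the thresholded list.

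Summits gathered upstream of the annotated start. The median lay at −136 bp, with quartiles of −177 and −63 bp, and 92.2% of summits (476 of 516, Wilson 95% interval 89.6 to 94.3%) lay upstream of the annotated 5′ end. The first coding base lay further on: 507 of the 516 summits preceded it, and the median summit lay at −171 bp from it. The rule bounds these positions, so they are given as a description. Signals were lower nearer the start, with a median of 98.7 for the 206 peaks at −250 to −151 bp, 92.4 for the 202 at −150 to −51 bp and 79.6 for the 108 from −50 bp on. Of the strongest 15, only ints-4, at +37 bp, had its summit past the 5′ end.

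**Figure D1:**
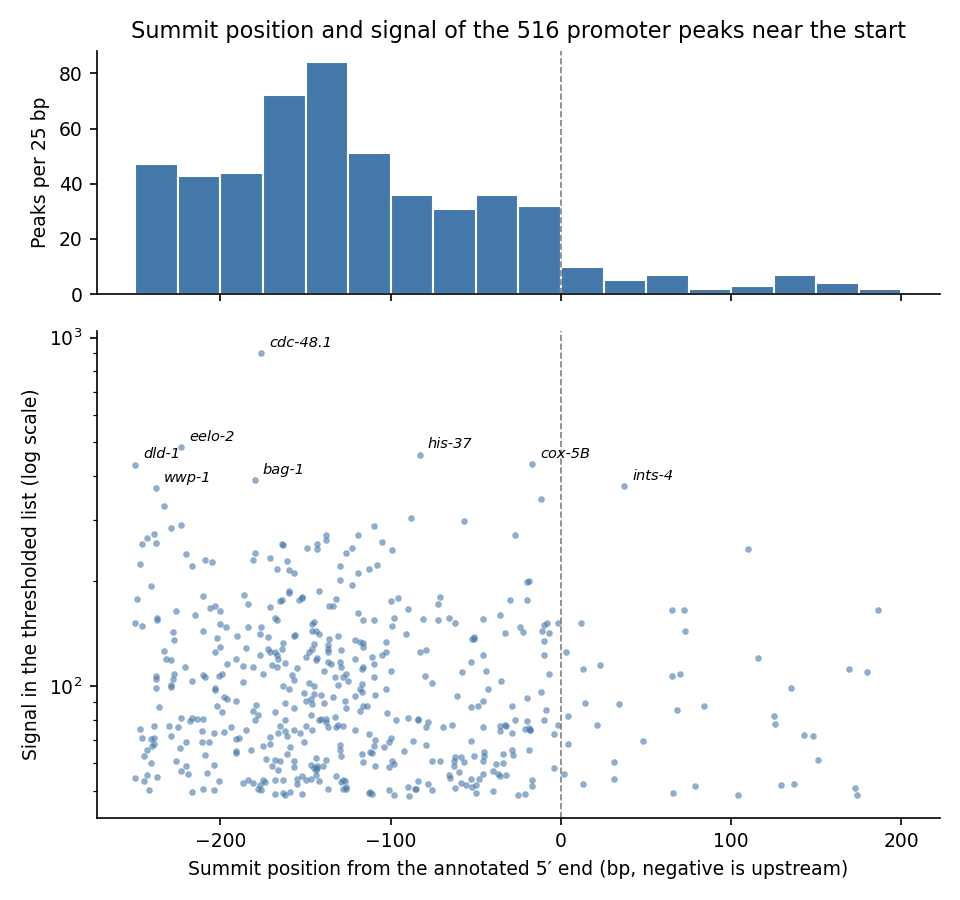
Summit position from the annotated 5′ end of the gene in bp (horizontal) for the 516 peaks: the upper panel counts peaks per 25 bp, and in the lower panel each point is 1 peak with its signal in the thresholded list (log scale), the 8 strongest named. Of the 516 summits, 476 lie left of the dashed line at the 5′ end, and cdc-48.1, at 902, stands above all others.

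The edges of the rule cut through a continuous run of peaks on the upstream side. At the upstream bound, phm-2 (signal 151.8), dld-1 (432) and sys-1 (54.4), whose product is a β-catenin, all had summits at exactly −250 bp. Just outside it, rpl-13 (189.6) and set-2 (59.5) had summits at −252 bp and npp-13 (75.9) at −253 bp. On the downstream side the members thin out to ctg-1 at +174 bp, tag-30 at +180 bp and hrpk-1 at +186 bp, and none lies outside because the promoter window itself ends there. The nearest tRNA gene lay 369 bp away at nfm-1 and 426 bp away at F22B7.9, the closest of the members, while 7 otherwise fitting peaks lay within 200 bp of a tRNA gene, such as that of T04D3.5 at 2 bp.

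Most of the summits lay in DNA between genes. Outside all annotated genes were 415 of 516 (80.4%, interval 76.8 to 83.6%), 27 lay in the 5′ UTR of their gene, 7 in an intron of it and 6 in its coding sequence. A further 41 lay inside another protein-coding gene and 20 inside a non-coding gene, among them dld-1 (inside LLC1.120), wwp-1 (inside Y65B4BR.10) and sec-24.1 (inside F12F6.13). The neighbour upstream was on the same strand at 311 peaks (60.3%), on the opposite strand at 167 (32.4%) and overlapped the 5′ end at 38. Since the rule leaves out peaks between divergent genes with close starts, the larger share of same-strand neighbours is partly set by it. These shares of location and neighbour were not taken over all genes or other peaks. More than 1 annotated transcript start existed at 225 of the peaks.

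Sequence that recurs in the genome was rare at these summits. In 6 of the 516 stretches any word of 36 bases occurred again in the genome, and in 1, at T22C1.1 (signal 76.9), all of them did. None of the strongest 15 was among the 6. The share with any recurring word, 1.16% here, was 2.19% at single-gene peaks further upstream, 1.12% at peaks shared by more than 1 gene and 3.11% at autosomal peaks in no promoter window.

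Peaks were unevenly spread over the autosomes. Per 1000 protein-coding genes there were 42.4 on chromosome I, 31.3 on II, 39.8 on III, 25.9 on IV and 19.2 on V, the chromosome with the most genes. In the central 50% of chromosome length lay 60.7% of the 516 summits (interval 56.4 to 64.8%), against 65.0% of the other autosomal thresholded peaks and 55.7% of all autosomal protein-coding 5′ ends.

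The replicates ranked these peaks alike to a moderate degree. Within 100 bp of the summit both replicates had a summit of their own at 492 of the 516 peaks (95.3%, interval 93.2 to 96.9%), beside 92.8% of the other autosomal thresholded peaks (1968 of 2120, interval 91.7 to 93.9%). Each replicate's list is relaxed, with 30000 entries that include background, so a match is a weak criterion. The thresholded list was also derived from these same replicate lists. The match shares and replicate comparisons here and below thus describe peaks already selected on agreement. Of the 24 unmatched peaks, 20 lacked a summit in replicate 1 and 4 in replicate 2. The strongest of those 24 was at unc-14, with a thresholded signal of 126.8 and 102.7 in replicate 2, and 3 of the others were at daf-19, the gene of an RFX transcription factor, atfs-1, that of the mitochondrial stress response factor, and lgg-1, that of an Atg8-like autophagy protein.

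At the 492 matched peaks the signal was higher in replicate 2 at 366 and higher in replicate 1 at 126. The median log2 ratio of replicate 2 to replicate 1 was 0.39, with quartiles of −0.01 and 0.79, and whether the replicates' depths differ is unknown. Over these peaks the Spearman correlation of the signals was 0.686, a description over peaks of the same pair of libraries. More than 2-fold apart were 88 of the 492 (17.9%), against 25.9% of the matched single-gene peaks further upstream, 14.2% of those shared by more than 1 gene and 24.1% of all matched other autosomal peaks (474 of 1968). These shares did not allow for the median log2 ratio, which was 0.39 here and 0.60, 0.41 and 0.53 in those classes. They are therefore not a measure of scatter alone.

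The peaks with the replicates furthest apart were weak ones. At K04B12.2 the signal was 11.7 in replicate 1 and 69.4 in replicate 2, and at mep-1, the gene of a zinc finger protein of germline and soma differentiation, it was 12.17 and 67.2. C09F5.1 had 9.03 and 47.0, and agef-1, for an Arf guanine nucleotide exchange factor, had 9.50 and 48.3. The reverse held at let-391, with 35.2 in replicate 1 and 10.5 in replicate 2. Each of these 5 had a thresholded signal below the median of the 516, and C09F5.1 ranked 21845 in replicate 1 and 1847 in replicate 2.

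**Figure D2:**
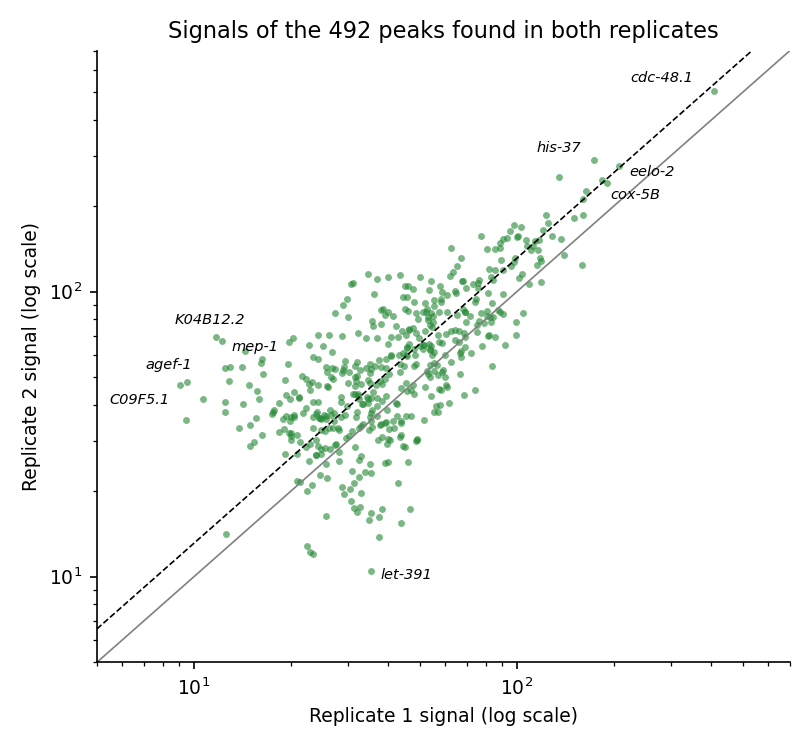
Signal in replicate 1 (horizontal) against replicate 2 (vertical), both on log scales, for the 492 peaks matched in both, each point 1 peak; the solid line marks equal signals and the dashed line the median log2 ratio of 0.39. The spread is widest among weak peaks, where K04B12.2, mep-1, C09F5.1 and agef-1 lie above and let-391 below, while cdc-48.1, his-37, eelo-2 and cox-5B lie near the dashed line.

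A list built from 1 replicate alone held most of the same genes. Taking the 3220 strongest peaks of replicate 1 and applying the same rule gave 526 genes, of which 425 are among the 515. The same step gave 502 genes for replicate 2, of which 433 are among the 515. Genes on both lists numbered 357, and 353 of these are among the 515, which is 68.5% of the 515 and 98.9% of the 357. The thresholded list was itself derived from both replicate lists, so these overlaps are partly set in advance.

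Strength went with other features of the peaks. Of the 172 strongest peaks (signal 120 and above) 99.4% were matched in both replicates, of the next 172 97.7% and of the 172 weakest (signal 72.1 and below) 89.0%. The median G and C content within 50 bp of the summit was lower in the same order, at 47.5%, 45.5% and 42.6%. Width also differed: 401 of the 516 peaks had the width of 344 bp that the list gives most often, with a median signal of 76.7, and the 115 others had a median signal of 180.0. The narrowest, at tag-281, was 86 bp wide with a signal of 113.7, and no peak exceeded 344 bp.

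Set beside the other classes of thresholded peaks, the near-start peaks were of middling strength. Their median signal of 89.4 compared with 84.0 for the 2120 other autosomal peaks, a ratio of 1.07 (1.11 with the signals of replicate 1 and 1.03 with those of replicate 2). Against single-gene peaks further upstream, with a median of 86.6, the ratio was 1.03 by thresholded signal but 1.10 by that of replicate 1 and 0.988 by that of replicate 2, so its direction differed between the replicates. Peaks in the windows of more than 1 gene were stronger, with a median of 102.6, and the ratio of the near-start peaks to them was 0.872 by thresholded signal, 0.837 by that of replicate 1 and 0.925 by that of replicate 2.

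G and C were concentrated at the summit itself. The median G and C content within 50 bp of the summit was 45.5% over the 516 peaks, against 36.6% in windows of the same size 500 bp to each side and 33.7% at the same distance (−136 bp) from all 17242 autosomal protein-coding 5′ ends. It was similar at single-gene peaks further upstream (46.5%), at peaks shared by more than 1 gene (45.5%) and at all other autosomal thresholded peaks (46.5%). Along the gene's strand the mean over 20 bp steps reached 51.6% at the summit and dropped to 30.4% at 120 bp upstream and 30.5% at 120 bp downstream. Farther downstream it was 38.4% at 200 bp, where at peaks further upstream it was 34.1%. By the rule, that point is still upstream of the 5′ end for peaks further upstream. For most near-start summits it lies past the 5′ end, so the classes are not compared at like places. On average the DNA within 50 bp of the near-start summits held more T (29.5%) than A (25.4%) and more C (24.5%) than G (20.6%) on the gene's strand.

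**Figure D3:**
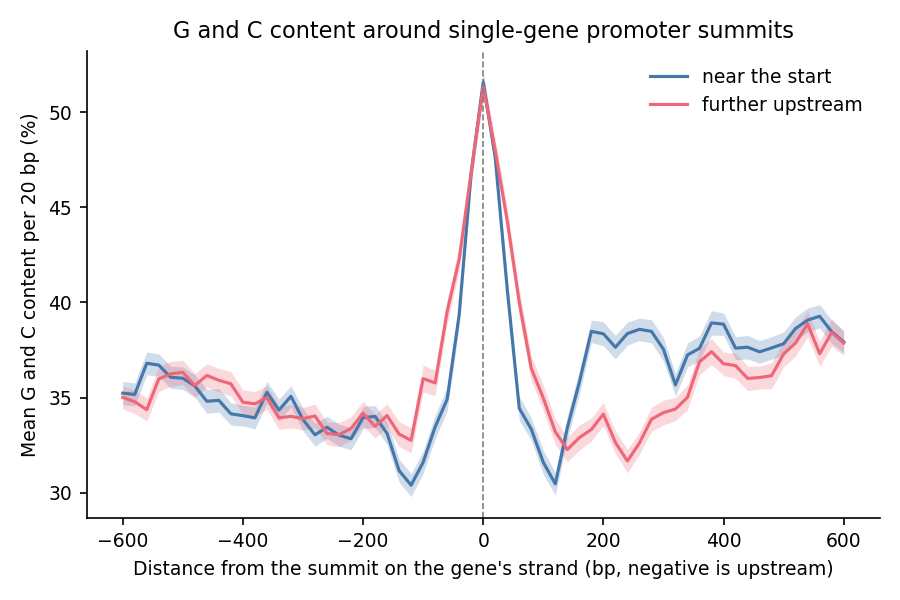
Mean share of G and C per 20 bp (vertical, %) by distance from the summit on the gene's strand (horizontal, bp) for the 516 near-start peaks and the 456 single-gene peaks further upstream, with bands of 1 standard error over peaks. Both reach about the same height at the summit (51.6% and 51.3%), and downstream the near-start peaks rise again to 38.4% at 200 bp, against 34.1%. By the rule, this point lies past the 5′ end for most near-start summits and upstream of it for the others.

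Short words of known promoter elements were counted within 50 bp of each summit, on both strands. CTGCGTCT, a word known from surveys of worm promoter sequences, was held by 58 of the 516 (11.2%, interval 8.8 to 14.3%), against 0.581% of the windows 500 bp away and 1.65% of all autosomal promoters at −136 bp. GCGCGC was also held by 58 peaks (11.2%), against 0.872% of the flanking windows and 1.49% of promoters. The GAGAGA repeat, which in Drosophila is bound by the GAGA factor, was held by 96 peaks (18.6%, interval 15.5 to 22.2%), against 4.46% of the flanking windows and 8.44% of promoters. At the other classes of peaks GAGAGA was more frequent or close to this, with 23.7% of single-gene peaks further upstream, 16.7% of peaks shared by more than 1 gene and 26.5% of all other autosomal peaks, while CTGCGTCT was held by 10.1%, 7.003% and 9.29% of these and GCGCGC by 8.77%, 12.3% and 8.49%. The E2F-like word TTCCCGCC was held by 13 peaks (2.52%), against 0.394% of promoters, CCGCCC, as in Sp1 sites, by 32 (6.20%), against 2.59%, and the E-box CACGTG by 25 (4.84%), against 1.90%.

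Other elements were rarer at the summits than at promoters in general, or about as common. The splice acceptor word TTTCAG was held by 35 peaks (6.78%), against 24.0% of the flanking windows and 15.1% of promoters. TATAAA, the TATA box, was held by 23 (4.46%), against 13.5% of promoters, the run TTTTTTTT by 29 (5.62%), against 14.0%, and the GATA-type word TGATAA by 21 (4.07%), against 12.1%. The forkhead word GTAAACA was held by 2.33%, against 1.86% of promoters, and the octamer ATGCAAAT by 0.969%, against 0.911%. The cyclic AMP response element TGACGTCA was held by 1 peak (0.194%), against 0.609%. The CCAAT box, searched as ATTGG, was held by 77 peaks (14.9%), against 17.6%, and of the 75 that held it in 1 orientation alone, 58 read CCAAT and 17 ATTGG on the gene's strand.

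These word counts move with base composition, so the same shares were taken within bands of G and C content. GAGAGA was held by 14.4% of the 132 peaks with 40 to 45% G and C, against 13.2% of the 2021 promoters in that band, and by 19.1% of the 131 peaks with 45 to 50%, against 19.2% of 1075 promoters. CTGCGTCT was held by 12.9% of the peaks, against 3.36% of the promoters, in the first of these bands and by 9.92%, against 6.79%, in the second. GCGCGC was held by 11.4%, against 2.97%, and by 10.7%, against 5.02%. Below 40% the shares were 13.8% of the peaks, against 6.27% of 13524 promoters, for GAGAGA and 4.88%, against 0.725%, for CTGCGTCT. At 50% and above they were 26.9% of 130 peaks, against 21.9% of the promoters, for GAGAGA and 16.9%, against 7.40%, for CTGCGTCT. Among windows of like composition GAGAGA was thus held by the peaks about as often as by promoters in the middle bands, while the other two words were held more often by the peaks in each band named. TATAAA was held by 5.30% of the peaks, against 6.23% of the promoters, in the first band and by 3.82%, against 4.19%, in the second. Below 40% it was held by 8.94% of the peaks, against 15.9% of the promoters, and at 50% and above by none of 130 peaks, against 2.09% of the promoters.

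The words also differed in how tightly they clustered on the summit. In windows of 51 bp, CTGCGTCT was held by 6.59% of the peaks at the summit, 2.33% at 50 bp upstream and 2.13% at 50 bp downstream, and GCGCGC by 8.33%, 1.55% and 1.55%. GAGAGA was spread more broadly, at 9.50% at the summit, 10.1% at 50 bp upstream and 8.14% at 50 bp downstream. CTGCGTCT showed no preferred strand, with 31 peaks holding it on the gene's strand and 27 on the other.

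A count of all 2080 words of 6 bases, with both strands merged, was used to pick out words by difference in share between the summits and the flanking windows. The 4 with the largest excess and the 3 with the largest deficit were taken. Because they were picked on these same peaks, their values are a description. ACGCGC was held by 115 of the 516 (22.3%), against 2.49% of promoters, GCAAAC by 108 (20.9%), against 6.12%, GAGCGC by 106 (20.5%), against 2.09%, and GACGCA by 98 (19.0%), against 3.49%. GACGCA lies within the reverse complement of CTGCGTCT, and ACGCGC can overlap GCGCGC, as can GAGCGC, so these counts are not separate. The largest deficits were of CTGAAA, which is TTTCAG read on the other strand, of AAAATT (25.8%, against 44.1% of promoters) and of AAAAAT (31.0%, against 53.5%). At single-gene peaks further upstream ACGCGC was held by 15.1% and GAGCGC by 14.7%, and at peaks shared by more than 1 gene by 20.3% and 20.2%.

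Which genes carried the near-start peaks was read from 29 lists made by gene name. Of the 17242 autosomal protein-coding genes 515 had such a peak, a background of 2.99%. Of the 516 peaks, 96 stood at a gene of any list and 420 at a gene of none. The share per list ran from 0, in 7 lists, to 18.8%.

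The highest share was in the list of cell cycle and replication genes, where 12 of 64 had a peak (18.8%, interval 11.1 to 29.97%). That list was made by name, and its strongest member, cdc-48.1, is mainly a protein-extracting ATPase, while cdk-7 (270.7), the kinase of TFIIH, and cdc-73 (51.4), for a subunit of the Paf1 complex, act in transcription. The kinase encoded by cdk-5 (245) is known mainly from neurons. Genes of DNA replication proper were mcm-4 (132), mcm-10 (106.8) and mcm-5 (70.8), for parts of the replicative helicase and its activation, pole-1 (103.7), for DNA polymerase epsilon, and orc-3 (81.0), cdt-1 (75.4), cdc-7 (59.4) and psf-3 (53.5), for origin recognition, licensing and firing. All 12 were matched in both replicates. In replicates 1 and 2, mcm-4 had 60.2 and 70.7, pole-1 had 34.0 and 68.5, and mcm-5 had 39.96 and 30.4, so that the replicate with the higher signal differed within the list.

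The share was also above the background in lists of translation and ribosome assembly. Of 40 translation factor genes 7 had a near-start peak (17.5%, interval 8.8 to 31.9%), led by the eIF3 subunits eif-3.C (328) and eif-3.B (258) and the elongation factor subunit eef-1B.2 (144). Of 30 genes of ribosome biogenesis 5 had one (16.7%, interval 7.3 to 33.6%): ruvb-2 (211), for an AAA ATPase, nol-56 (177), for a core protein of box C/D small nucleolar RNA particles, utp-20 (154.4), dao-5 (138.6) and pro-1 (127.5). Of 70 mitochondrial ribosomal protein genes 6 had one, led by mrpl-55 (271) and mrpl-28 (248). A thresholded peak of any class lay in the window of 75% of the translation factor and 60% of the ribosome biogenesis genes. For mitochondrial ribosomal protein genes this was 42.9%, and for all autosomal protein-coding genes 14.1%. Among genes with any window peak, the near-start class made up 23.3%, 27.8% and 20% in the same order, against 21.1% for all. The higher shares were thus not particular to near-start peaks.

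Genes of cytosolic ribosomal proteins mostly had peaks of another class. Of the 82 such genes on autosomes 73 had a thresholded peak in their promoter window. In 7 it lay near the start and in the window of no other gene. That is 8.54% of the 82 (interval 4.20 to 16.6%), above the background of 2.99%. Another 16 had one further upstream and 50 had one in a window shared with another gene. The 7 were rps-17 (255.8), rpl-24.2 (247), ubl-1 (228), rpl-41.2 (157.1), rpl-18 (156.5), rla-0 (105.2) and rack-1 (98.4), with a median position of −228 bp. That count depended on the bounds, with 2 genes at bounds of −200 to +150 bp and 14 at −300 to +250 bp. As a share of the genes with any window peak, the near-start class made up 9.59% for ribosomal proteins, 32.4% for the cell cycle list (12 of 37) and 21.1% for all autosomal protein-coding genes (515 of 2437).

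Other lists of general cell function also held such genes. Nuclear pore and transport genes had 7 of 40 (17.5%), among them imb-3 (224), for an importin β, npp-1 (141) and npp-8 (139.7). Vacuolar ATPase genes had 3 of 17, vha-9, vha-14 and vha-16, with signals of 107.9, 105.9 and 90.9. Proteasome genes had 3 of 33, the core subunit pbs-3 (169.8), the ATPase rpt-1 (121) and the deubiquitinase rpn-11 (108.4). Oxidative phosphorylation genes had 4 of 65, cox-5B being followed by nduf-11 (147), ndus-8 (140.0) and nuo-2 (125). Membrane trafficking genes had 6 of 90, led by the COPII coat gene sec-24.1 (217), and tubulin, kinesin and dynein genes had 3 of 35, led by the α-tubulin gene tba-2 (254). In these lists, 34.3% (tubulin list) to 69.7% (proteasome) of the genes had any window peak, against 14.1% of all autosomal protein-coding genes. Of the genes with any window peak, the near-start class made up 10.5% (oxidative phosphorylation) to 50% (vacuolar ATPase, 3 of 6). It made up 26.9% for nuclear pore and transport and 21.1% for all autosomal protein-coding genes.

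Several more lists had shares from 3.23% (aminoacyl-tRNA synthetases) to 6.98% (kinases and phosphatases), beside the background of 2.99%. Splicing genes had 3 of 59, with rsp-6 (234) and snrp-3 (215) the strongest, RNA polymerase and general transcription genes had 3 of 66, led by mdt-22 (154.6), ubiquitin genes had 3 of 64, led by usp-39 (98.1) (both of these counts were 6 without replicate 2), heat shock and J-domain genes had 3 of 46, led by dnj-9 (274), and aminoacyl-tRNA synthetases had 1 of 31, vars-1 (110.7). Kinase and phosphatase genes named kin, pph or ptp had 3 of 43, and none of them was above 76.7, the value of pph-4.2. With the full thresholded list, for each of these lists, and for oxidative phosphorylation and the tubulin list, the 95% interval of the share includes 2.99%.

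Nuclear hormone receptors, a large family of ligand-regulated transcription factors in worms, had 8 of 246 (3.25%, interval 1.66 to 6.28%). Their peaks were weak, from 56.7 at nhr-207 to 78.7 at nhr-228, all below the median of the 516. They made up 8 of the 18 receptor genes with any window peak (44.4%). Detoxification enzymes had 4 of 171 (2 without replicate 1), with signals of 48.5 at cyp-13A5, 51.8 at cyp-13A2, 56.0 at ugt-26 and 59.6 at cyp-33C8. Collagens of the cuticle had 2 of 144 (1 without replicate 2), col-103 (58.3) and col-98 (53.9), and F-box genes named fbxa, fbxb or fbxc had 2 of 305, fbxc-19 (69.0) and fbxa-128 (57.3).

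No near-start peak was found at any of 1331 chemoreceptor genes (interval up to 0.288%), 237 C-type lectin genes (up to 1.60%), 107 neuropeptide and insulin-like peptide genes (up to 3.47%), 64 homeobox genes, 31 major sperm protein genes, 8 genes of the CCT chaperonin or the 1 vitellogenin gene on an autosome. The CCT genes had peaks of another kind, since 7 of the 8 had one in a window shared with a neighbour. For the chemoreceptors and lectins, as for the F-box genes (up to 2.36%), the upper end of the interval lies below 2.99%. For the other lists with no peak it lies above, at 32.4% for the 8 CCT genes and 79.3% for the 1 vitellogenin gene. Among the 3220 strongest peaks of replicate 1 alone, 1 lectin gene had a near-start peak. Thresholded peaks of any class were also scarce in the windows of most of these lists. They were found at 1.13% of chemoreceptor, 1.69% of lectin, 1.87% of neuropeptide, 4.69% of homeobox and 4.59% of F-box genes. No major sperm protein or vitellogenin gene had one, against 14.1% of all autosomal protein-coding genes. The scarcity was thus not particular to near-start peaks.

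**Figure D4:**
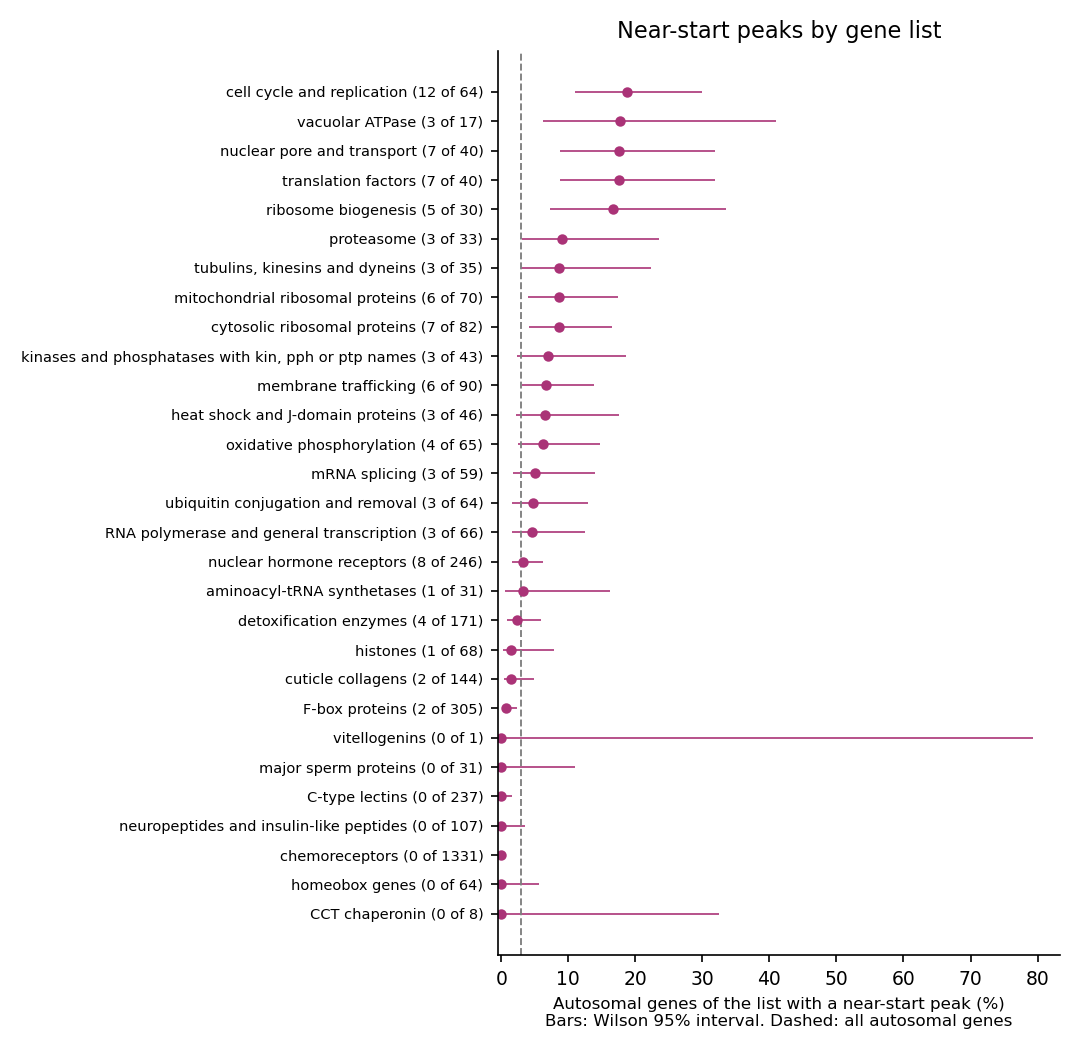
Share of the autosomal genes of each of 29 name-based lists with a near-start peak (horizontal, %), with the number of genes in brackets, Wilson 95% intervals as bars and the share of all autosomal protein-coding genes, 2.99%, as a dashed line. Cell cycle and replication (12 of 64), vacuolar ATPase (3 of 17), nuclear pore and translation factor (7 of 40 each) and ribosome biogenesis genes (5 of 30) lie highest, and chemoreceptors (0 of 1331) lie at 0 with the shortest bar.

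The genes the strain was built on had no peak of this kind. At C16A3.4 itself (chromosome III, 6381634 to 6382996) no list held a summit within 1000 bp. At unc-119 no thresholded peak was found, and the best peak of the pooled list had a signal of 23.5 at rank 7693. F47D12.9, the gene with 2 near-start peaks, had one at +73 bp with a signal of 144.1 (60.5 in replicate 1 and 84.7 in replicate 2) and one at −129 bp with a signal of 53.2 (23.4 and 12.01).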

How the data were processed

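The 4 peak lists on ce11 (thresholded, pooled and 1 per replicate) were used, and those on ce10 were not used here. The signal per peak is the authors' deposited value, on a scale not stated, and is used only to describe and rank peaks within lists. The −log10 q, as deposited, was tied at 3.84 over the thresholded list, so it ranks nothing. The deposited summit offset is taken as another measure, a distance in bp from the peak's start. Per the deposited notes, the lists were called against a control, and the thresholded list was derived by irreproducible discovery rate from the pooled and replicate lists. Peak caller, aligner and versions were not given in the sources used here, which are the labels and notes. The lists hold no read counts, so depth is unknown and Wilson 95% intervals cover counting error over peaks or genes only.

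Summits were placed on the Ensembl release 115 annotation of WBcel235 (46890 genes, 19973 protein-coding). Replicate summits were matched within 100 bp. Words were searched on both strands within 50 bp of each summit, in windows 500 bp to each side, and at −136 bp from all 17242 autosomal protein-coding 5′ ends, a set that includes the genes described. The code was written in Python 3.11.15 with numpy 2.4.6, pandas 2.3.3 and scipy 1.17.1, and was tested on simulated peaks.

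The peaks, the 29 gene lists (made from gene name patterns) and the 14 named words were chosen with earlier results of these data known. Peaks and genes share libraries and neighbourhoods and are not replicates, so no test was run over them. Genes were named by rule: the 15 strongest and 5 weakest peaks, the 5 with the replicates furthest apart relative to the median ratio, up to 3 per list by signal, the widest and narrowest peaks, those at the bounds of the rule, genes with 2 of the peaks, and C16A3.4 and unc-119. The widest peak is not named because 401 peaks tie. The other members of short lists, the recurring-sequence and unmatched examples, and the genes whose sequences are shown were chosen after their values were seen, as were the bands of G and C content and 2 of the alternatives.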

Additional observations from a re-analysis of the deposited data

How the results depend on the processing

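The alternatives were other bounds, other tRNA distances, the peak midpoint in place of the summit, any transcript start in place of the gene's 5′ end, a list shortened to its top-ranked 50% or lengthened to 2 times its number with pooled peaks, other matching distances, other window sizes, and the 3220 strongest peaks of each replicate in place of the thresholded list. Restricting to peaks matched in both replicates, or to those with a summit away from the exact centre, was added after seeing the data. The count of 516 became 275 in the shortened list and 939 in the lengthened one. The signal ratio of 1.07 to other autosomal peaks was 1.10 at bounds of −300 to +250 bp and 1.04 with any transcript start, and 1.06 to 1.09 with either replicate left out. It exceeded 1 in each alternative run. The median position of −136 bp was −118.5 and −147 bp with the narrower and wider bounds, −133 bp with any transcript start, −139 and −121 bp in the shortened and lengthened lists, −145 bp for uncentred summits, and −136 to −134 bp with either replicate left out. The share matched in both replicates, 95.3%, was 98.9% and 80.5% in the shortened and lengthened lists, and 83.1% and 98.4% when matching within 50 and 200 bp. The median G and C content of 45.5% was 43.6% in the lengthened list, 49.0% and 38.8% with 25 and 100 bp to each side, 48.5% for uncentred summits, and 43.6 to 45.5% with either replicate left out. Part of these shifts follows from the alternatives' construction (bounds, window sizes, matching distances), and for the others the cause was not tested. Under alternatives 13 counts of list members moved by more than 1.5 times and 103 did not (those that moved with a replicate left out were the ubiquitin, RNA polymerase, collagen, detoxification and lectin lists), and 31 word shares moved beyond the interval of the main share and 25 did not. No paired analysis was possible because the series holds 1 group.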
